A study of Mus musculus with 4 samples.

Results

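The genes for the inhibitors of cyclin-dependent kinases were followed in LSK cells with and without *Meis1*. They comprise the Cip/Kip family (*Cdkn1a*, *Cdkn1b* and *Cdkn1c*) and the Ink4 family (*Cdkn2a*, *Cdkn2b*, *Cdkn2c* and *Cdkn2d*). All non-control probes that carry one of these 7 gene names were taken, and they number 10 of the 41174 probes on the array. LSK cells are lineage-negative bone marrow cells positive for Sca-1 and c-Kit, the compartment that holds hematopoietic stem cells (HSCs) and early progenitors. RNA of these cells was profiled in 2 pools of 6 C57BL/6J mice per genotype, with 1 single-color array per pool, at 1 week after poly(I:C). Meis1-KO cells came from *Meis1* fl/fl mice carrying *Mx1-Cre*, and Meis1-WT cells from *Meis1* fl/fl mice without Cre. Both groups therefore carry the floxed alleles.

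Mice were 4 to 8 weeks old when they began 4 intraperitoneal injections of poly(I:C), each of 1.5 µg per gram. The treatment label and the methods on mice give these injections to both genotypes, whereas the deposited design and the array methods call the controls sham-treated. *Mx1-Cre* is driven by an interferon-responsive promoter that is not restricted to hematopoietic cells. Only Meis1-KO mice carried Cre, so loss of *Meis1* and presence of Cre cannot be told apart in this comparison. If the controls were sham-treated, poly(I:C) cannot be told apart from these either. Since the pools hold sorted cells in bulk, fewer cells of a type and less RNA per cell cannot be told apart.

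Cip/Kip proteins bind complexes of cyclins with CDK2 and related kinases, and p27 is removed in cycling cells by ubiquitination. Ink4 proteins bind CDK4 and CDK6 and keep them from pairing with D-type cyclins. In HSCs, p57 and p27 are known for holding cells in quiescence, p21 is a classical p53 target induced by stress, p18 limits self-renewal, and the *Cdkn2a* locus is kept silent by Polycomb proteins. The comparison of genotypes asks whether RNA of these brakes differed when *Meis1* had been deleted, in cells whose cell cycle status the study examined.

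Each probe has 60 bases, and its sequence decides which transcripts a value stands for. The opening 30 bases of each probe are given 5′ to 3′ in the sense of the transcript, in lower case, with the bases that the *Cdkn2c* probes share in capitals. *Cdkn1b* probe A_51_P169173 is shown whole and in capitals throughout, since it is the *Cdkn1b* probe printed in 10 copies and 2 of its 3 forward frames hold no stop codon.
Cdkn1a A_51_P363947: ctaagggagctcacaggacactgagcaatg
Cdkn1b A_51_P169173: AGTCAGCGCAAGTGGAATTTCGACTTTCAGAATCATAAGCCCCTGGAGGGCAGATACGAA
Cdkn1b A_52_P673863: attagccaagcaaccataagactctagtca
Cdkn1b A_51_P146126: ttcattgcctgtgtatgagaaaaacttgga
Cdkn1c A_51_P339540: cgtagagcagcccacggttttgtggaaatc
Cdkn2a A_51_P144813: cacttctagcgatgctagcgtgtctagcat
Cdkn2b A_52_P498241: catgtgtggggattcacctgcaaaatggca
Cdkn2c A_51_P513719: tctcactgacctcacactgtCCGTTAGTTG
Cdkn2c A_51_P513720: CCGTTAGTTGGTTGGCTGTCCGTTTCACTA
Cdkn2d A_51_P122356: ttgggcatgtgagggggaagggaaagcatt

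The array's annotation places these probes on the mouse build mm9. *Cdkn1a* lies at chr17:29237377-29237436 on the plus strand and *Cdkn1c* at chr7:150644753-150644812 on the minus strand. The *Cdkn1b* probes start at chr6:134871103, chr6:134873606 and chr6:134875215 on the plus strand, so the last begins 4112 bases after A_51_P169173. On the minus strand of chromosome 4, the *Cdkn2a* probe at 88920545-88920604 and the *Cdkn2b* probe at 88952437-88952496 are 31892 bases apart. The *Cdkn2c* probes, at 109333779-109333838 and 109333757-109333818, lie 20.4 Mb further along and share 40 of their 60 bases, so they are not independent readings. *Cdkn2d* is at chr9:21092980-21093039 on the minus strand. Whether a probe lies in coding or untranslated sequence was not analysed here.

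Values are log2 of the processed signal minus the array's 75th percentile, so a value of 0 is a spot at that percentile, and a difference of 1 is 2-fold. Probes differ in how they bind their targets, so levels are compared between arrays and not between probes. A probe counts as measured on an array when it is well above background there, and was tested when this held on both arrays of at least 1 genotype. Of all spots, between 49.2% (Meis1-KO 2) and 57.4% (Meis1-WT 1) were well above background. Replicates 1 of both genotypes share 1 slide and replicates 2 another, and each array holds a pool of its own. The targeted gene *Meis1* had log2 values of 0.25 and 0.22 in Meis1-KO against 1.02 and 1.45 in Meis1-WT with its brighter probe. Genotype difference and error for that probe were -0.997 ± 0.44 (SE; limma adjusted p = 0.983). Cre removes the *Meis1* exon that encodes the homeodomain, and whether the *Meis1* probes lie in it was not analysed. The dimmer *Meis1* probe, well above background on 1 of the 2 Meis1-KO arrays, passed the filter through Meis1-WT alone. As fitted it differed by -1.70 ± 0.54 (SE; limma adjusted p = 0.983). That difference includes a value of -3.54 on Meis1-KO 2, below the array's lowest value well above background, -3.25. Of 10 LSK marker genes, 9 were measured on all 4 arrays, and *Flt3* on 3. Of 11 lineage marker genes with a probe, *Itgam*, *Cd79b* and *Igj* were measured on all 4, and *Cd3e* and *Cd3g* on none.

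None of the *Cdkn* probes met the study's criteria, a change over 2-fold with p under 0.01 before adjustment. Of the 7 genes, 5 had a tested probe, 8 probes in all. Of these 8, 0 were called lower, where 0.600% of the 22007 tested probes were, and 0 were called higher, where 0.136% were. All 8 were measured on all 4 arrays, and a fit of the 18861 such probes alone called 43 lower and 10 higher. With the slide as a block, 0 of the 8 were again called, against 1.99% of all tested probes. By limma, by limma with the block and by the methods' t-test, 0 of the 8 had an unadjusted p under 0.05. Over all tested probes, 0 had a limma adjusted p under 0.05, and 50 did with the block. The median difference of the 8 probes, Meis1-KO minus Meis1-WT, was 0.26, with 5 higher and 3 lower. Over all tested probes the median was 0.082 and 56.3% were higher. These 8 probes count *Cdkn1b* and *Cdkn2c* more than once, and with the brightest probe of each of the 5 genes the median was -0.084, with 2 higher and 3 lower. Without the second Meis1-KO array 3 of the 8 probes were higher. The typical standard error of a difference was 0.494 (median over all tested probes). At that error a difference of 1.20 on the log2 scale is needed for an unadjusted p under 0.05 and one of 1.81 for a p under 0.01, so 2-fold differences were not detectable for a typical probe.

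**Figure D1:**
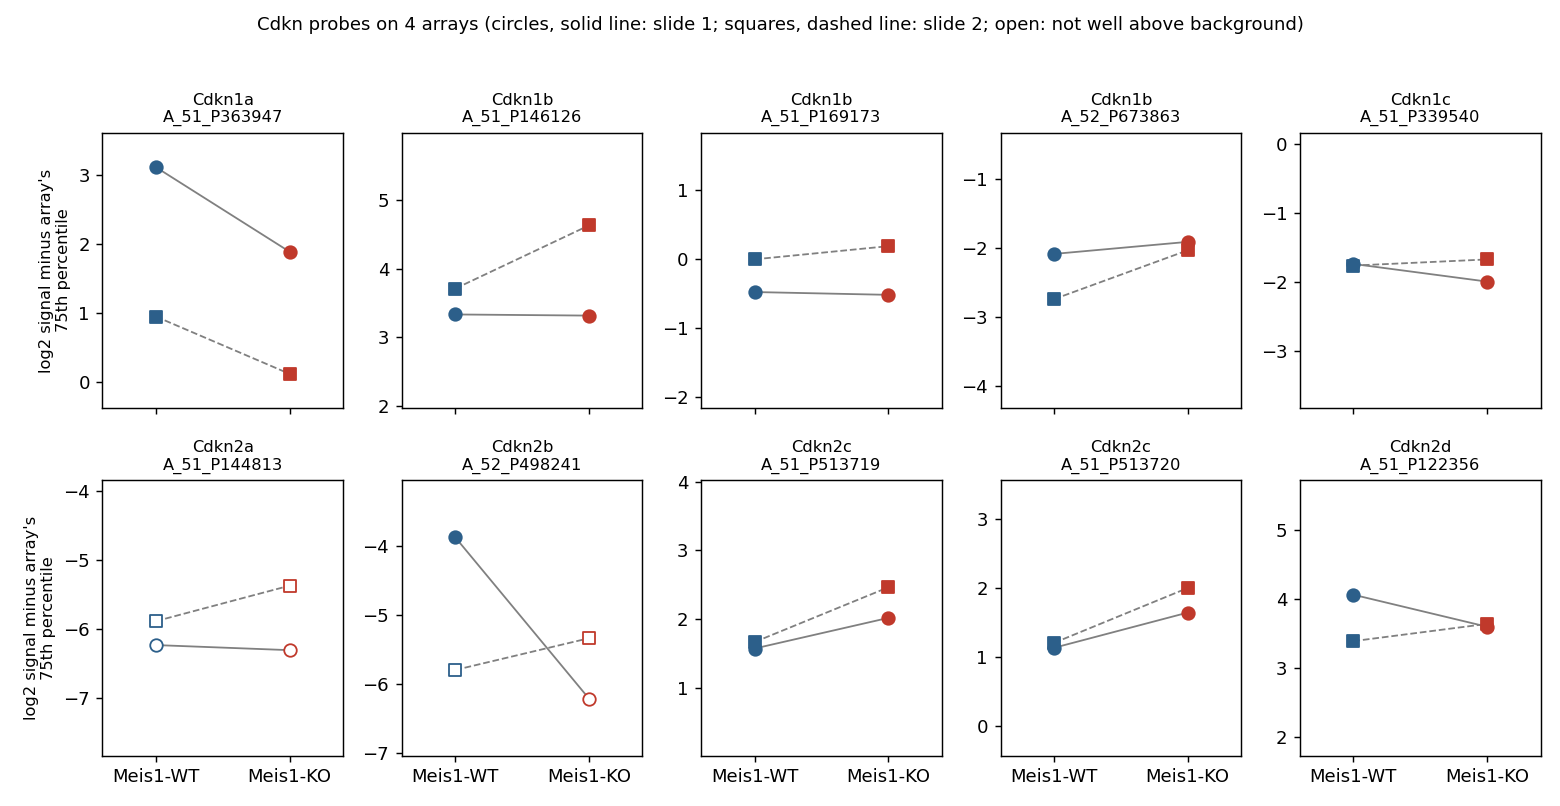
Log2 signal minus the array's 75th percentile (vertical axis, 4 log2 units in each panel) for each of the 10 probes in Meis1-WT (blue) and Meis1-KO (red). Circles and solid lines are slide 1, squares and dashed lines slide 2, and open symbols are arrays where the probe was not well above background. *Cdkn1a* was lower in Meis1-KO on both slides but differed more between the slides, both *Cdkn2c* probes were higher in Meis1-KO on both slides, and *Cdkn2a* has open symbols alone.

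Among the Cip/Kip genes, *Cdkn1a* had the largest difference of the tested *Cdkn* probes. It encodes p21, which inhibits CDK2 and binds PCNA. On slide 1 its log2 value was 1.89 in Meis1-KO and 3.12 in Meis1-WT. On slide 2 it was 0.12 in Meis1-KO and 0.95 in Meis1-WT. Meis1-KO was thus lower within each slide, by -1.23 and -0.83, but the genotypes overlapped, because Meis1-KO on slide 1 lay above Meis1-WT on slide 2. Group means were 1.00 ± 1.25 and 2.03 ± 1.53 (SD, n = 2 each). The difference of -1.03 ± 0.90 (SE) had a 95% interval of -3.21 to 1.16 and did not pass (limma adjusted p = 0.983). With the slide as a block its standard error was 0.47 and its adjusted p 0.832 by limma. Without the first Meis1-WT array the difference was 0.055.

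The slides differed in *Cdkn1a* by more than the genotypes did. From slide 1 to slide 2 the value was lower by -1.77 in Meis1-KO and by -2.17 in Meis1-WT, while the medians over all tested probes shifted by 0.16 and 0.034. A drop at least as large as the smaller of these in both genotypes was found for 37 of the 22007 tested probes (0.168%), *Cdkn1a* included. The probe is printed in 10 spots per array, and those not marked as outliers varied by only 2.38% to 4.27% (CV). Before scaling, its processed signals were 550 and 98.0 in Meis1-KO and 1273 and 297 in Meis1-WT, on arrays whose 75th percentiles were 148 and 90.3 in Meis1-KO and 147 and 154 in Meis1-WT. The spots measure the error within an array and say nothing of the spread between pools.

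**Figure D2:**
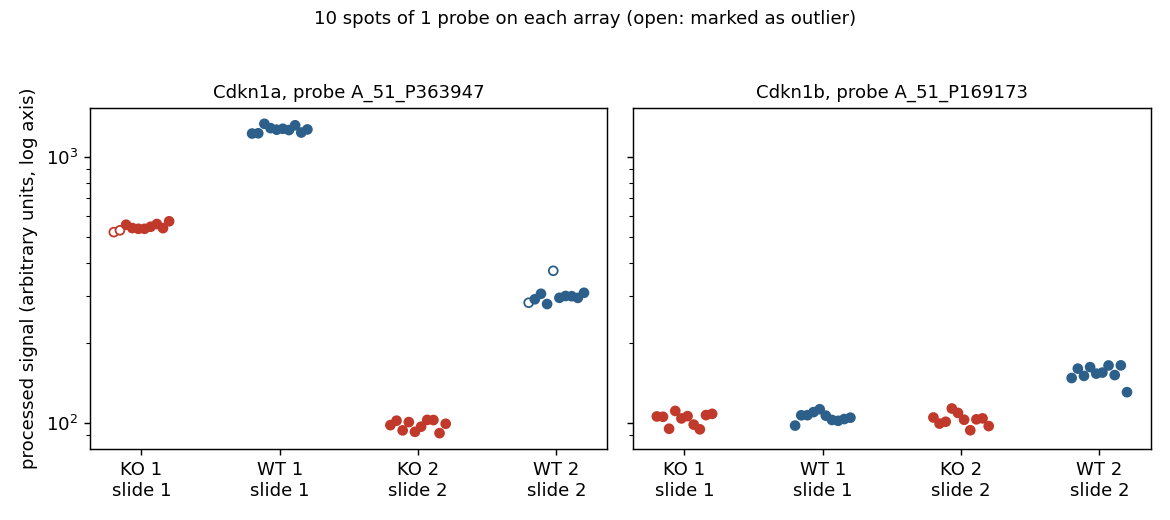
Processed signal (arbitrary units, log axis) of the 10 spots of *Cdkn1a* probe A_51_P363947 and *Cdkn1b* probe A_51_P169173 on each array, before scaling between arrays, with outlier spots open. Spots of 1 array form tight groups, and *Cdkn1a* is brightest on Meis1-WT 1 and dimmest on Meis1-KO 2.

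Some other genes also differed between the slides. Of 6 early-response genes looked at after the *Cdkn1a* values had been seen, 5 were measured on all 4 arrays. *Atf3*, a stress-induced transcription factor, was lower on slide 2 by -2.39 in Meis1-KO and -1.85 in Meis1-WT. *Jun*, a subunit of AP-1, was lower by -2.23 and -1.49, and *Egr1* by -2.91 and -0.93. *Fos* differed by -0.07 and -0.70, and *Dusp1*, a MAP kinase phosphatase, by 0.06 and -0.56. The myeloid marker *Itgam* also had its higher values on slide 1, with 2.57 and 0.88 in Meis1-KO and 2.14 and 0.76 in Meis1-WT. The B-lineage marker *Cd79b* had 0.31 and 0.43 in Meis1-KO and 1.01 and 0.0075 in Meis1-WT. The plasma cell gene *Igj*, whose order differed from that of *Itgam*, had 1.38 and 4.34 in Meis1-KO and 4.27 and 3.30 in Meis1-WT. The summed signal of the 11 lineage markers, between 3.36 and 4.75 on the log2 scale, follows these brightest members and not the list as a whole. The part of these in the *Cdkn1a* values was not tested.

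Over the 4 arrays, the pattern most like that of *Cdkn1a* was that of *Prg2*, an eosinophil granule protein gene. Likeness was the Euclidean distance between log2 values centered on each probe's mean, among the 18861 probes measured on all 4 arrays. The distance was 0.18 for *Prg2*, 0.31 for *Rora*, a nuclear receptor gene, and 0.40 for *Skil*, which encodes a corepressor of Smad proteins.

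*Cdkn1b*, which encodes p27, was read by 3 probes that are measured on all 4 arrays. The brightest, A_51_P146126, had log2 values of 3.32 and 4.63 in Meis1-KO and of 3.33 and 3.71 in Meis1-WT. The slide 1 arrays had almost the same value, and the second Meis1-KO array stood above the other 3. Its difference was 0.45 ± 0.57 (SE), with a 95% interval of -0.93 to 1.83 (limma adjusted p = 0.983), and it was -0.20 without that array. The 10-spot probe A_51_P169173 had -0.52 and 0.19 in Meis1-KO and -0.48 and -0.0049 in Meis1-WT. Its values differed more between slides than between genotypes, and the difference was 0.075 ± 0.48 (SE; limma adjusted p = 0.992), with spots that varied by 4.01% to 6.65% (CV). The third probe, A_52_P673863, had -1.91 and -2.04 in Meis1-KO against -2.09 and -2.75 in Meis1-WT. Here both Meis1-KO arrays were above both Meis1-WT arrays, with a difference of 0.44 ± 0.46 (SE; limma adjusted p = 0.983). The array's annotation lists a RefSeq transcript for the other 2 *Cdkn1b* probes and none for this one. Thus 1 of the 3 probes separated the genotypes, as 16.0% of all tested probes did with Meis1-KO higher, and its 95% interval of -0.67 to 1.56 includes 0. Without scaling between arrays its signals of 39.4 and 22.0 in Meis1-KO and of 34.5 and 23.0 in Meis1-WT overlapped.

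*Cdkn1c* encodes p57 and is an imprinted gene. Its probe had log2 values of -1.99 and -1.67 in Meis1-KO and of -1.74 and -1.76 in Meis1-WT. Both Meis1-WT values lay between those of Meis1-KO. The difference of -0.084 ± 0.43 (SE) had a 95% interval of -1.12 to 0.96 (limma adjusted p = 0.991), and its sign was opposite on the slides, at -0.26 and 0.089.

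Of the Ink4 genes, *Cdkn2c*, which encodes p18, was the one whose genotypes did not overlap. Probe A_51_P513719 had log2 values of 2.02 and 2.46 in Meis1-KO and of 1.58 and 1.67 in Meis1-WT. The overlapping probe A_51_P513720 had 1.65 and 2.00 in Meis1-KO and 1.14 and 1.21 in Meis1-WT. With both probes the Meis1-KO arrays were higher on each slide, by 0.44 and 0.79 with A_51_P513719 and by 0.51 and 0.80 with A_51_P513720. The differences were 0.62 ± 0.44 and 0.65 ± 0.43 (SE), with 95% intervals of -0.44 to 1.68 and -0.39 to 1.70 (limma adjusted p = 0.983 for both). Neither passed, and 25.5% and 23.2% of all tested probes had larger absolute differences.

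The *Cdkn2c* probes and *Cdkn1b* A_52_P673863 were the 3 of 8 tested probes whose genotypes did not overlap, all higher in Meis1-KO. Among all tested probes, 16.0% were apart with Meis1-KO higher and 10.9% with Meis1-KO lower, the latter with 0 of the 8. Without scaling between arrays, the *Cdkn2c* probes were still apart with Meis1-KO higher, as 5.74% of all tested probes were, while *Cdkn1b* A_51_P169173 and *Cdkn1c* were apart with Meis1-KO lower, as 20.3% were. *Cdkn1a* and the 3 probes that were apart after scaling, and no other, had the same sign on both slides. For those 3 this follows from the genotypes not overlapping.

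*Cdkn2d* encodes another Ink4 protein that acts on CDK4 and CDK6. Its values of 3.60 and 3.64 in Meis1-KO lay between the 4.07 and 3.39 of Meis1-WT. The difference was -0.11 ± 0.46 (SE), with a 95% interval of -1.22 to 1.01 (limma adjusted p = 0.989), and it had opposite signs on the slides, at -0.46 and 0.25.

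**Figure D3:**
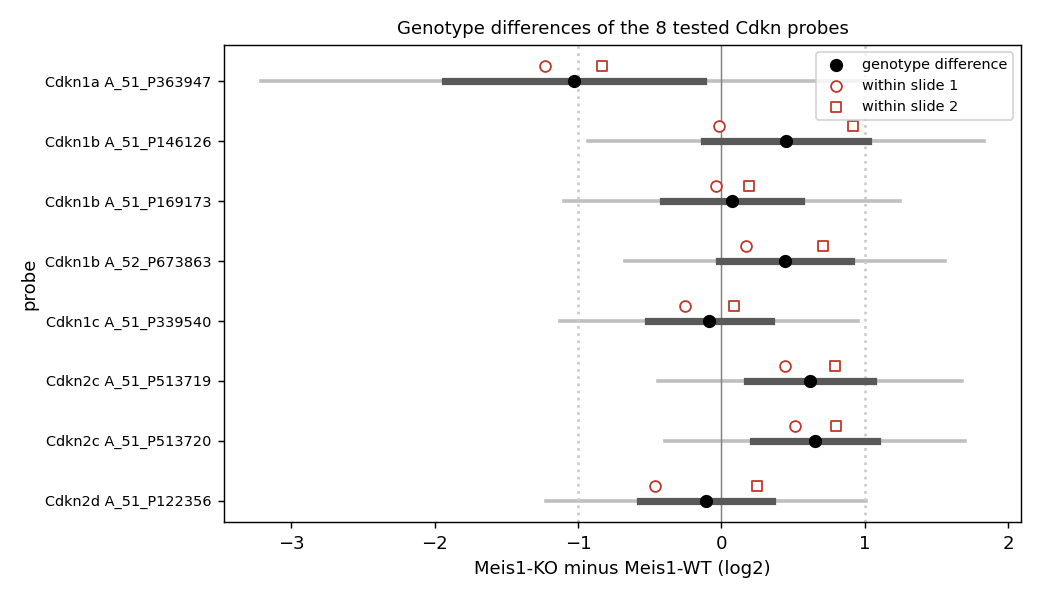
Meis1-KO minus Meis1-WT (log2, horizontal axis) for the 8 tested probes. Black points are the limma differences with their SE (dark bars) and 95% interval (light bars), open circles and squares the differences within slide 1 and slide 2, and dotted lines mark 2-fold. All 8 intervals include 0, and *Cdkn1a* has the widest, from -3.21 to 1.16.

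*Cdkn2a* and *Cdkn2b*, neighbors in the *Ink4* locus, were not tested. This gene gives rise to p16 and to the alternative-frame protein Arf. The array's annotation lists 2 RefSeq transcripts for its probe, which therefore does not separate them. It was not well above background on any array, with signals of 1.88 and 2.18 in Meis1-KO and of 2.01 and 2.60 in Meis1-WT. The lowest signal that passed as well above background was between 7.23 and 11.8 on these arrays. The *Cdkn2b* probe, for p15, a TGF-β-induced inhibitor, was well above background on the first Meis1-WT array, with a signal of 10.0. On the other arrays it was dim, at 2.00 and 2.23 in Meis1-KO and 2.76 in the second Meis1-WT. With 1 spot measured on 1 of 4 arrays, no genotype difference is given for *Cdkn2b*.

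None of the 10 cyclin and kinase genes tested of the 11 that these inhibitors act on or with met the criteria. They had a median difference of 0.34, with 8 higher and 2 lower, and the median was 0.18 on slide 1 and 0.56 on slide 2. *Ccnd1*, for the D-type cyclin that Ink4 proteins keep from its kinases, differed by 0.49 ± 0.42 (SE), and *Ccne2*, a partner of CDK2, by 0.83 ± 0.49. Of 24 proliferation genes, 21 were higher and 3 lower, with a median of 0.36 and 0 calls, and *Tyms*, for thymidylate synthase, differed by 0.81 ± 0.45. The median of the proliferation genes was 0.22 on slide 1 and 0.55 on slide 2. Both list medians lay above the 0.082 of all tested probes, of which 56.3% were higher. So did the medians of the ubiquitin ligase genes (0.18) and of the imprinted neighbors of *Cdkn1c* (0.51), while those of the other lists lay below it.

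None of the genes in the lists for turnover and transcription of the inhibitors met the criteria. Of 13 genes of the ubiquitin ligases that remove Cip/Kip proteins, 7 were higher and 6 lower, with a median of 0.18 and 0 calls. *Rbx1*, a subunit of cullin ligases, differed by 0.76 ± 0.62 and *Cks1b*, a cofactor in p27 ubiquitination, by 0.62 ± 0.49 (SE). Of 15 Polycomb genes, 4 were higher and 11 lower, with a median of -0.34 and 0 calls. *Cbx2* and *Pcgf2*, subunits of Polycomb repressive complex 1, differed by -0.99 ± 0.55 and -0.95 ± 0.47. Of 16 tested upstream regulators of these genes, 7 were higher and 9 lower, with a median of -0.12 and 0 calls. *Tgfb1* differed by -1.23 ± 0.59 and *E2f1*, a transcription factor that CDK activity releases, by 0.56 ± 0.45.

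Other p53 targets lay on both sides of 0. Of 16 tested, 9 were higher and 7 lower in Meis1-KO, with a median of 0.037 and 0 calls. From slide 1 to slide 2 their median shift was 0.26 in Meis1-KO and -0.49 in Meis1-WT, and 4 of 16 were lower on slide 2 in both genotypes. *Plk2*, a polo-like kinase gene, differed between genotypes by -0.89 ± 0.60 and *Rrm2b*, for a ribonucleotide reductase subunit, by 0.60 ± 0.46 (SE).

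Of 12 imprinted neighbors of *Cdkn1c* on distal chromosome 7, 7 were tested, 6 higher and 1 lower, with a median of 0.51 and 0 calls. Their median difference was 0.052 on slide 1 and 0.96 on slide 2. *Phlda2* differed by 0.98 ± 0.64 and *Slc22a18* by 0.84 ± 0.52 (SE). Imprinted genes elsewhere had 3 of 10 higher and 7 lower, with a median of -0.35. *Peg3*, a paternally expressed zinc finger gene, was measured with the 1 tested of its 3 probes on both Meis1-KO arrays and on no Meis1-WT array. *Dlk1*, also paternally expressed, was measured with the 1 tested of its 2 probes on both Meis1-WT arrays and on no Meis1-KO array. Each passed the filter through the genotype where it was measured and met the criteria only with values that are not well above background, so no p is given for them. The dim arrays were then set at the higher of the probe's value and their lowest signal well above background. So set, the *Peg3* probe was at least 2.10-fold higher in Meis1-KO and the *Dlk1* probe at least 1.21-fold lower.

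Among the markers, *Flt3* was lower in Meis1-KO, where it was dim on 1 of 2 arrays, so it passed the filter through Meis1-WT alone. The difference was -2.59 with that array at its lowest signal well above background, against -3.33 ± 0.80 (SE) as fitted. *Flt3* met the criteria as fitted, and whether it would with that array so set was not tested. In contrast, *Cd48* differed by 0.85 ± 0.53, and 5 of the 10 LSK markers were higher and 5 lower. Of 5 lineage markers tested, 1 was higher and 4 lower with 0 calls, *Cd8a* by -1.34 ± 0.43 (SE), or -1.31 with the Meis1-KO array where it was dim set in the same way.

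**Figure D4:**
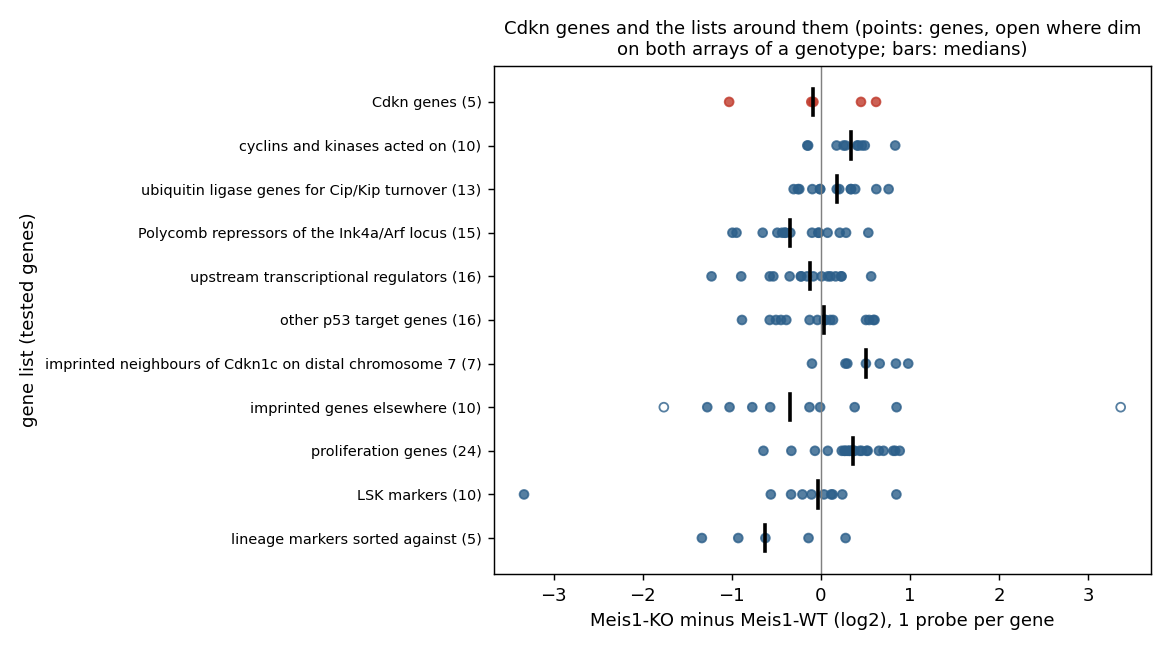
Meis1-KO minus Meis1-WT (log2, horizontal axis) of the brightest tested probe of each gene, for the 5 tested *Cdkn* genes (red) and the lists around them (blue), with the number of tested genes in parentheses. Bars are medians and open points are genes dim on both arrays of a genotype, whose position is no bound. The *Cdkn* genes run from -1.03 for *Cdkn1a* to 0.62 for *Cdkn2c*, and *Cdkn1c*, at -0.084, is their median.

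In the promoter windows of the *Cdkn* genes, the letters TGACAG, the core of the DNA motif that Meis proteins bind, were searched on both strands. RefSeq windows on GRCm38.p6 of equal length around transcript starts were given for 6 of the 7 genes. The motif was in 2 of their 9 windows, 1 of *Cdkn2a* and 1 of *Cdkn2c*, and in 19.2% of 32851 windows of all genes.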

How the data were processed

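The authors deposited, for 2 Meis1-KO and 2 Meis1-WT pools, scanner files with the processed intensity of each spot, background-subtracted and detrended within the array (Feature Extraction 9.5.3.1 in the file headers, 9.1 in the submitters' processing notes), and a table of the same intensities, 0.995 to 1.005 times the scanner values, unscaled between arrays. Groups were taken from the sample titles. After outlier and control spots had been left out, log2 spot values of a probe were averaged and set relative to the 75th percentile of their array. A linear model with genotype as its only term was fitted to each probe (lmFit and eBayes, limma 3.58.1, R 4.3.3), p-values were adjusted over 22007 probes by Benjamini-Hochberg, and the fit was checked on simulated arrays. An exact permutation test of 2 against 2 cannot go below 0.333. For genes with several probes, the brightest was the main one.

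The *Cdkn* probes, the gene lists and the tests were chosen with earlier results of these data known. Named were all *Cdkn* probes, *Meis1*, in each list the genes that met the criteria and the 2 of smallest p, and the 3 genes nearest to *Cdkn1a*. Outside this rule, the early-response genes and the lineage markers *Itgam*, *Cd79b*, *Igj*, *Cd3e* and *Cd3g* were named after their values had been seen. A gene named by this rule among the lineage markers is not reported here. Since replicate numbers coincide with slides in the files, pairing was checked, and the correlation over probes between same-numbered arrays, each as its deviation from the genotype mean, was 0.266. Precision is limited by the number of arrays and by how far a spot stands above background.

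As alternatives, arrays were scaled by the median or by quantiles, corrected with normexp (offset 50), or taken from the authors' table. Dim probes were kept, or had to be measured on all 4 arrays, and outlier spots were included. The slide was added as a block, the methods' t-test was run, and each array was left out. A further alternative, in which arrays were left unscaled, was chosen after seeing the data.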

Additional observations from a re-analysis of the deposited data

How the results depend on the processing

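The counts of *Cdkn* probes called lower and called higher were 0 under every alternative run, the replicate block (slide) included. With 1 array of each genotype per slide, the replicate block cannot change a difference, which stays -1.03 for *Cdkn1a*, and it changes only the error and p (adjusted p by limma 0.832 against 0.983), while the count over all tested probes rose from 132 lower and 30 higher to 307 and 130. Both *Cdkn2c* probes and *Cdkn1b* A_52_P673863 kept their sign under the 10 of 14 alternatives that can change an estimate. Their leave-one-out values ran from 0.40 to 0.84, from 0.48 to 0.83 and from 0.11 to 0.77. The sign of these probes could not turn by leaving out an array, since every Meis1-KO value lay above every Meis1-WT value. Leaving out an array turned *Cdkn1a* (-2.11 to 0.055, positive without the first Meis1-WT array), *Cdkn1b* A_51_P146126 (-0.20 to 1.10), *Cdkn1b* A_51_P169173 (-0.28 to 0.43), *Cdkn1c* (-0.24 to 0.077) and *Cdkn2d* (-0.44 to 0.23). Those arrays were the second Meis1-KO for *Cdkn1b* A_51_P146126 (-0.20), the second Meis1-KO (-0.28) and first Meis1-WT (-0.16) for A_51_P169173, the first Meis1-KO for *Cdkn1c* (0.077) and the first Meis1-WT for *Cdkn2d* (0.23). With 1 array left in a genotype, limma assumes that it varies like the other genotype. *Cdkn1c* was 0.0022 with median scaling and 0.22 with normexp, and A_51_P169173 was -0.30 with no scaling, which moves the median of all tested probes from 0.082 to -0.30. With no scaling the *Cdkn2c* differences were 0.24 and 0.28, *Cdkn1b* A_52_P673863 was 0.064, A_51_P146126 was 0.073, *Cdkn1a* was -1.41, *Cdkn1c* was -0.46 and *Cdkn2d* was -0.49. *Cdkn2d* was -0.30 with quantile scaling and with normexp. Each of the values that changed sign lay within the 95% interval of its probe, and the cause was not tested. *Cdkn2a* and *Cdkn2b* had no main value to compare, and *Cdkn2a* was well above background on no array.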
